A study of Mus musculus and Homo sapiens with 14 samples.

Results

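The genes of cholesterol and fatty acid synthesis were followed in a pair of mouse cell lines, each grown by itself and in co-culture. They are 39 genes, 21 of the sterol branch and 18 of the fatty acid branch, taken by symbol from the 35288 gene identifiers listed for each mouse line, and all 39 were found. No measured value was used to choose them, although the list was drawn up with earlier results of these data known. Oli-neu is a mouse line with features of oligodendrocyte precursor cells. MB1 is a line from Sonic hedgehog medulloblastoma, a tumour of the cerebellum, in Atoh1-cre:SmoM2 mice at postnatal day 12, in which Cre from the granule neuron precursor gene Atoh1 switches on a constantly active Smoothened. D341 is a human line of Group 3 medulloblastoma and is met here only as a partner of Oli-neu. The 5 culture conditions had 2 libraries each: Oli-neu with MB1, Oli-neu with D341, Oli-neu alone, MB1 with Oli-neu, and MB1 alone. In co-culture a 30 mm insert whose membrane has 0.4 µm pores kept the lines apart, and all cells grew in the same medium with B-27 and N-2 supplements and 20 ng/mL each of EGF and bFGF. Each line is a single established culture, so the 2 libraries of a condition, which the labels call biological replicates, are cultures of 1 line and not separate animals.

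Cholesterol is built from acetyl-CoA through the mevalonate pathway, in which activated isoprene units are joined to squalene, squalene is closed into lanosterol, and lanosterol is trimmed to cholesterol. Fatty acids are built from the same acetyl-CoA by carboxylation to malonyl-CoA, chain extension on fatty acid synthase, and later elongation and desaturation. The SREBP transcription factors switch on both branches: SREBP-2, the product of Srebf2, acts mainly on sterol genes, and SREBP-1, the product of Srebf1, mainly on fatty acid genes. When sterols are plentiful in the cell, the Insig proteins hold the precursors of these factors in the endoplasmic reticulum. Oligodendrocytes are known for a large demand for cholesterol and fatty acids when they make myelin, and sterols are also needed for the activity of Smoothened in the hedgehog pathway.

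SREBP acts beside a small set of partner factors, and the letters these factors read can be seen in the promoters of the genes. RefSeq windows on GRCm38.p6 from 250 bases before to 50 bases after the start were at hand for 32 of the 39 genes, as 40 windows, since some genes have several starts. Fads1, Fdft1, Fdps, Scd1, Scd2, Sqle and Stard4 had no window, so their promoters were not searched. The sterol response element of SREBP was searched as TCACNCCAC, the CCAAT box of NF-Y as CCAAT, the GC box of Sp1 as GGGCGG, and the E-box as CACGTG, each on both strands. Windows for Hmgcs1 (chr13:119690101-119690400, plus strand), Ebp (chrX:8193463-8193762, minus strand), Lss (chr10:76531355-76531654, plus strand), Insig1 (chr5:28071162-28071461, plus strand) and Me1 (chr9:86695865-86696164, minus strand) are shown 5′ to 3′ on the strand of the gene, with every match in capitals. Hmgcs1 was taken as the one gene among the 32 searched with the sterol response element in the letters used. Ebp and Lss were taken because they were lower without overlap in more than 1 co-culture. Insig1 overlapped its monoculture in each co-culture, and Me1 was higher without overlap in MB1 with Oli-neu.
Hmgcs1: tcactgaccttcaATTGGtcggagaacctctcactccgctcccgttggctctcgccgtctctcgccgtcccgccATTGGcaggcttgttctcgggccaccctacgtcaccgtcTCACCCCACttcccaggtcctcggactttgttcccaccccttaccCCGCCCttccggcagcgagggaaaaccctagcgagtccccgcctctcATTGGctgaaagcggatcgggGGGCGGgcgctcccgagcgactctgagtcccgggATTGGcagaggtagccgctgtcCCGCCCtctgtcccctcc
Ebp: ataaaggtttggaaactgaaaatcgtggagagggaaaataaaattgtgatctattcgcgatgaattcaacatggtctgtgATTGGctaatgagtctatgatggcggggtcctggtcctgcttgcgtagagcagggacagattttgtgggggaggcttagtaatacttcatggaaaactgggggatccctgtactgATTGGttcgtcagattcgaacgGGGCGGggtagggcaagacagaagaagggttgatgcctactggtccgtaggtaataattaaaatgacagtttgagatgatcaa
Lss: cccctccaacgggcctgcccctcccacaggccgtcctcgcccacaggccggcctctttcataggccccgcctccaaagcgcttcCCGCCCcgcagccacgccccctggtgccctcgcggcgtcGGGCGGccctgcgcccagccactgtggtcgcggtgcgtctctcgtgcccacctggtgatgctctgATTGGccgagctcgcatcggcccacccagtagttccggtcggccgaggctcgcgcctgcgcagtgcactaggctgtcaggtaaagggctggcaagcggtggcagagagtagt
Insig1: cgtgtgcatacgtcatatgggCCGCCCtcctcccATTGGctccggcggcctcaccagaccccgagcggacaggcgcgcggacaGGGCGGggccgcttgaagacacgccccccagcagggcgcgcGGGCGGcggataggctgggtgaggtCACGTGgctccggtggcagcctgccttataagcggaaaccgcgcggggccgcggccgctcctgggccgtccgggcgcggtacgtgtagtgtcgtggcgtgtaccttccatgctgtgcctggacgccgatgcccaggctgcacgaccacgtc
Me1: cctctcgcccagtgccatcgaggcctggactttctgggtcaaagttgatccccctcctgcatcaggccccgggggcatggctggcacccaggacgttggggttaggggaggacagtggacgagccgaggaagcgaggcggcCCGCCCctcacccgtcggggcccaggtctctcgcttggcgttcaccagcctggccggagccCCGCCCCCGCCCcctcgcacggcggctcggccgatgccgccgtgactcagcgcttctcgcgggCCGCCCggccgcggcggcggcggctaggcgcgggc
A CCAAT box stood in 16 of the 20 windows of sterol genes (80%) and in 11 of the 20 of fatty acid genes (55%), beside 37.4% of all 32851 windows and 38.4% of the windows of genes tested in Oli-neu. The GC box was in 85% of sterol windows and 55% of fatty acid windows, beside 63.9% of the windows of genes tested in Oli-neu. The sterol response element searched was in 1 window, that of Hmgcs1, beside 1.24% of all windows. The E-box was in 4 sterol windows (20%) and 1 fatty acid window (5%), beside 7.15% of all windows and 9.96% of the windows of genes tested in Oli-neu. In the printed set Hmgcs1 has 4 CCAAT boxes, Ebp 2, Lss and Insig1 1 each and Me1 none, each read on the opposite strand as ATTGG, and Insig1 alone has an E-box. A second Me1 window, not printed (chr9:86687228-86687527), has 1 CCAAT box. The windows of Acat2 and Acaca, both lower without overlap in MB1 with Oli-neu, have none. Any link between these boxes and the changes was not tested. In the Me1 window a pair of GC boxes touch each other, so they appear as one stretch of capitals.

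Transcripts were measured as TPM, the share of each gene among all transcripts after correction for gene length, scaled to 1000000 in each library. Between 11596 and 12338 genes reached 1 TPM in a library. The number of reads behind each library is not known, so no counting error is given. In bulk RNA, fewer cells of a type and less RNA per cell cannot be told apart. Tests were limma fits of log2(TPM + 1) over all genes that reached 1 TPM in 2 or more libraries, and a log2 fold change given here is on that scale, which understates the change of genes near 1 TPM. A gene was called when its p adjusted over all genes tested was under 0.05. With 2 libraries against 2, an exact permutation test of a single gene cannot go below 0.3333. The line labels were checked against marker genes. Sox10, which defines the oligodendrocyte lineage, was between 171 and 235 TPM in Oli-neu and between 0.466 and 0.882 TPM in MB1, and the myelin gene Mbp was between 59.3 and 76.2 TPM in Oli-neu and between 2.17 and 3.67 TPM in MB1. Other genes of that list lay the other way. Olig1 was between 455 and 833 TPM in MB1 and between 126 and 187 TPM in Oli-neu, Olig2 between 151 and 246 TPM in MB1 and between 49.2 and 76.0 TPM in Oli-neu, and Cnp between 37.7 and 65.5 TPM in MB1 and between 16.0 and 25.9 TPM in Oli-neu. Nkx2-2 was listed at 0 in every Oli-neu library and was at most 9.94 TPM in MB1, so the list as a whole does not set Oli-neu above MB1. Zic1, a granule neuron precursor factor, was between 63.7 and 125 TPM in MB1 and at most 0.0322 TPM in Oli-neu, while Atoh1, whose Cre made the tumours of origin, was at most 0.0143 TPM in MB1. Markers of astrocytes summed to between 927.3 and 1185 TPM in Oli-neu and between 649.9 and 804.2 TPM in MB1. Of markers of other cells, those of microglia summed to at most 0.727 TPM and those of fibroblasts and endothelium to at most 8.56 TPM in the 10 libraries. C1qa of microglia and Cldn5 of endothelium were listed at 0 in all 10, but Pecam1 of endothelium was between 0.496 and 3.94 TPM in all 10, and Col1a1 of fibroblasts between 2.08 and 5.12 TPM in Oli-neu. Pseudogenes took 36.0% to 38.2% of the TPM of Oli-neu libraries and 25.2% to 26.8% of those of MB1, so levels are set side by side between the lines without a test.

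Both branches were expressed in both lines, at levels that differed widely between genes. Scd2, a desaturase that puts the first double bond into saturated fatty acids, had the highest mean of the 39 genes in all 5 conditions. Scd2 was at 227 and 203 TPM in Oli-neu with MB1, 163 and 212 TPM in Oli-neu with D341, 198 and 253 TPM in Oli-neu alone, 366 and 237 TPM in MB1 with Oli-neu and 343 and 394 TPM in MB1 alone. Acacb, the mitochondrial acetyl-CoA carboxylase, had the lowest mean in all 5 conditions, between 0.00941 and 0.0511 TPM, and was under the filter in both lines. Elovl7, a fatty acid elongase, was under the filter in MB1 but not in Oli-neu. All 21 sterol genes passed the filter in both lines, so 38 genes were tested in Oli-neu and 37 in MB1.

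In MB1 alone both libraries lay above both libraries of Oli-neu alone for 17 of the 21 sterol genes. The same held for 12 of the 18 fatty acid genes, among them Acacb, which was under the filter. The share of all genes that lay this way was not worked out, so these counts have no background beside them. Protein-coding genes took 74.5% and 74.6% of the TPM of MB1 alone and 63.9% and 63.1% of that of Oli-neu alone. The part of this difference in the counts was not tested. Hmgcs1, the synthase that makes HMG-CoA for the mevalonate pathway, had a mean of 304 ± 23.7 TPM in MB1 alone and 83.6 ± 11.4 TPM in Oli-neu alone (SD, n = 2 each), 3.63 times as much. Lpin1, a phosphatidate phosphatase of glycerolipid synthesis, was 4.32 times as high, Gpam, the acyltransferase that starts glycerolipids, 3.69 times, the desaturase Fads2 3.59 times, and Acaca, the cytosolic acetyl-CoA carboxylase, 3.24 times. Another 5 genes lay the other way, with both Oli-neu libraries on top: Sqle, the epoxidase that commits squalene to sterols, Insig1, Srebf2, Elovl7 and Acsl3, an acyl-CoA synthetase of lipid droplets. Elovl7 was 8.76 times as high in Oli-neu alone as in MB1 alone, while the other 4 differed by 1.16 to 1.52 times. Acat2, the thiolase that starts the pathway, and Acly, Elovl1, Srebf1 and Me1 overlapped between the lines.

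A set of 10 genes was read in every condition as landmarks of the 2 branches. Hmgcs1 was at 74.1 and 61.7 TPM in Oli-neu with MB1, 57.5 and 77.4 TPM in Oli-neu with D341, 75.6 and 91.6 TPM in Oli-neu alone, 273 and 183 TPM in MB1 with Oli-neu and 287 and 321 TPM in MB1 alone. Sqle was at 93.3 and 61.9 TPM in Oli-neu with MB1, 72.9 and 83.7 TPM in Oli-neu with D341, 92.5 and 96.3 TPM in Oli-neu alone, 53.0 and 43.6 TPM in MB1 with Oli-neu and 79.3 and 72.4 TPM in MB1 alone. The level of Hmgcs1 in either MB1 condition lay above all Oli-neu libraries, whereas that of Sqle in either MB1 condition lay below both libraries of Oli-neu alone. Insig1 was at 165 and 157 TPM in Oli-neu with MB1, 149.6 and 222 TPM in Oli-neu with D341, 163 and 225 TPM in Oli-neu alone, 136 and 110.3 TPM in MB1 with Oli-neu and 117 and 138 TPM in MB1 alone. Srebf2 was at 122 and 101 TPM in Oli-neu with MB1, 102 and 119 TPM in Oli-neu with D341, 101 and 121 TPM in Oli-neu alone, 93.9 and 78.3 TPM in MB1 with Oli-neu and 92.6 and 98.5 TPM in MB1 alone. Stard4 was at 15.7 and 12.3 TPM in Oli-neu with MB1, 11.6 and 18.5 TPM in Oli-neu with D341, 13.9 and 18.5 TPM in Oli-neu alone, 24.9 and 27.6 TPM in MB1 with Oli-neu and 24.0 and 30.3 TPM in MB1 alone. Insig1, which codes for an Insig protein, and Srebf2, which codes for SREBP-2, were both lower in every MB1 library than in either library of Oli-neu alone. The libraries of MB1 with Oli-neu and MB1 alone overlapped for both and for Stard4, a carrier of sterols between membranes.

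On the fatty acid side the landmarks spread over a wider range of levels. Fasn was at 79.8 and 74.6 TPM in Oli-neu with MB1, 76.6 and 83.9 TPM in Oli-neu with D341, 87.5 and 98.2 TPM in Oli-neu alone, 78.7 and 74.3 TPM in MB1 with Oli-neu and 113 and 122 TPM in MB1 alone. Scd1 was at 29.0 and 21.8 TPM in Oli-neu with MB1, 19.4 and 20.9 TPM in Oli-neu with D341, 24.3 and 27.6 TPM in Oli-neu alone, 52.7 and 36.8 TPM in MB1 with Oli-neu and 52.7 and 50.4 TPM in MB1 alone. Acaca was at 2.56 and 2.20 TPM in Oli-neu with MB1, 2.20 and 1.74 TPM in Oli-neu with D341, 2.65 and 2.53 TPM in Oli-neu alone, 4.74 and 5.16 TPM in MB1 with Oli-neu and 9.46 and 7.32 TPM in MB1 alone. Fasn, the fatty acid synthase itself, was highest in MB1 alone, and Scd1, a second desaturase, was higher in every MB1 library than in any Oli-neu library. Acaca was a low transcript in Oli-neu and higher in every MB1 library. Srebf1 was at 10.9 and 13.1 TPM in Oli-neu with MB1, 9.11 and 11.9 TPM in Oli-neu with D341, 11.1 and 13.6 TPM in Oli-neu alone, 11.0 and 12.5 TPM in MB1 with Oli-neu and 12.5 and 17.8 TPM in MB1 alone. The libraries of Srebf1 overlapped among the Oli-neu conditions.

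**Figure D1:**
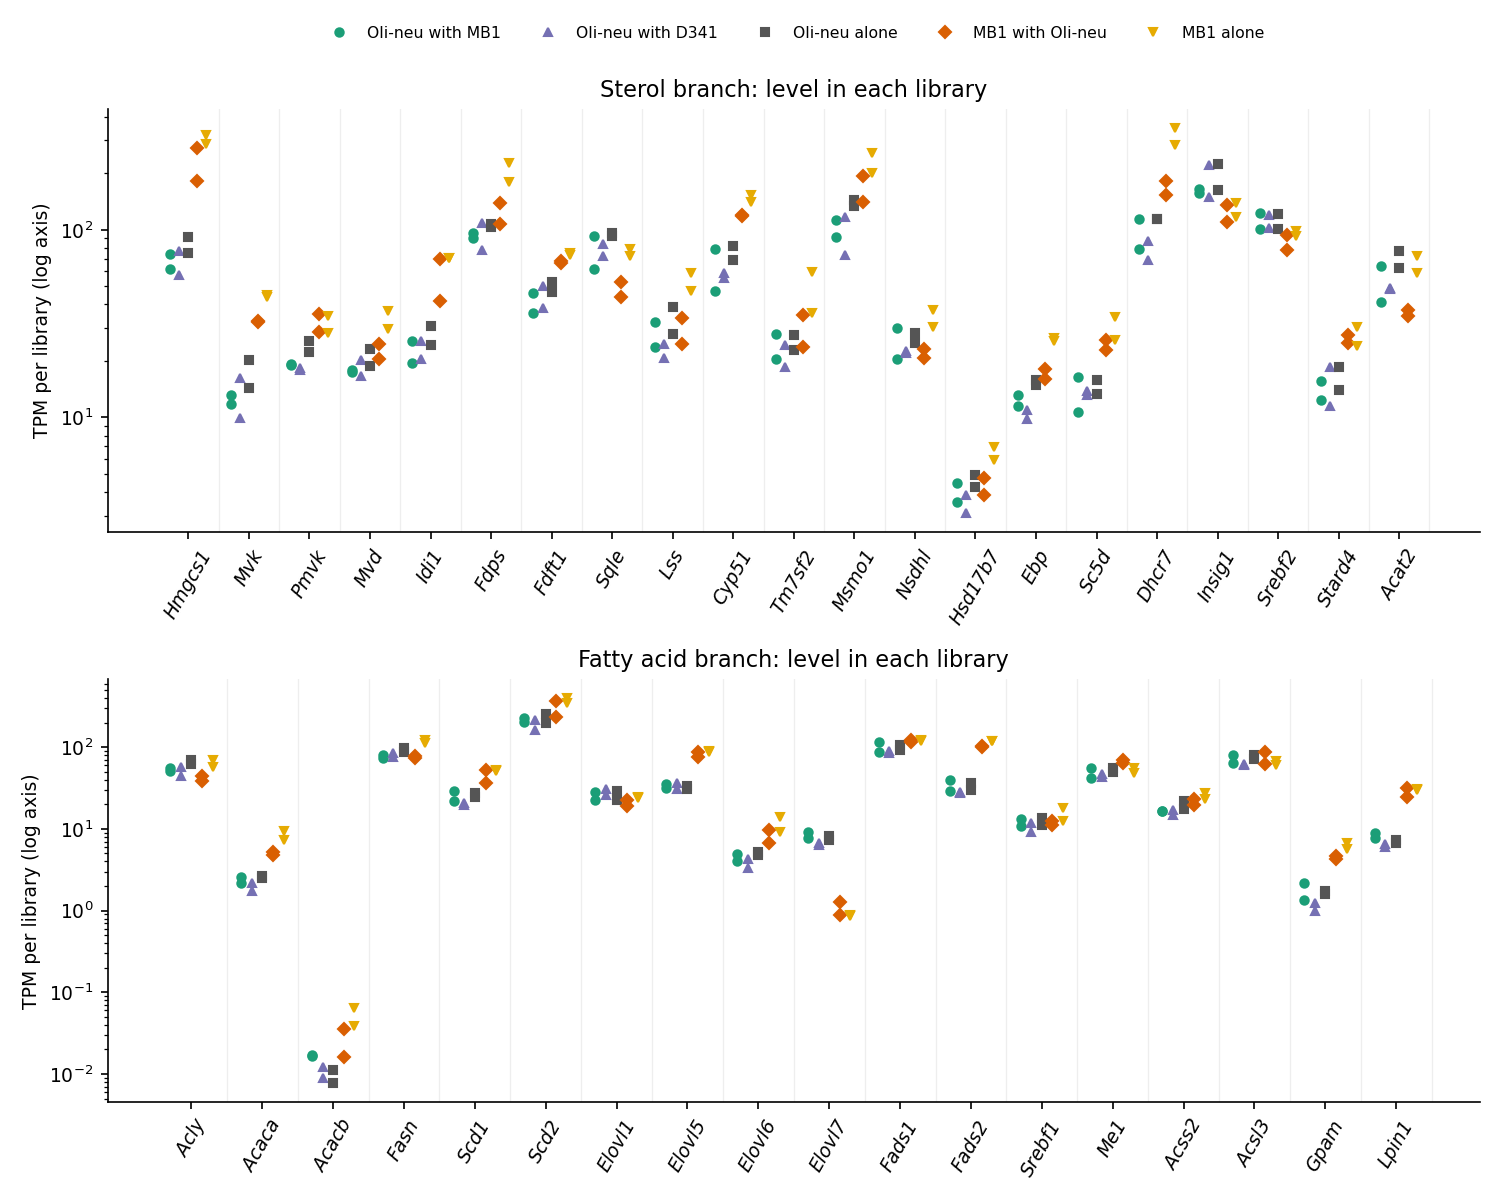
TPM of each of the 21 sterol genes (top) and 18 fatty acid genes (bottom) on a log axis, with 1 point for each library of the 5 culture conditions. The points of MB1 alone are on top for most sterol genes, Scd2 is the highest gene and Acacb, under 0.1 TPM, the lowest.

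In MB1 with Oli-neu against MB1 alone, which sets the tumour line beside oligodendrocyte-like cells against its own monoculture, 20 of 21 sterol genes had a lower mean beside Oli-neu, as did 14 of the 16 fatty acid genes tested, beside 70.9% of all genes tested with a lower mean and 29.1% with a higher one. No member was called, and none of the 12407 genes tested was, with limma (1569 genes were lower and 375 higher at an unadjusted p under 0.05). The smallest adjusted p among the members was 0.282. At an unadjusted p under 0.05, 10 sterol genes and 3 fatty acid genes were lower and none was higher, beside 12.6% of all genes tested that were lower and 3.02% that were higher. These counts were 3 sterol and 2 fatty acid genes under median-ratio scaling, 3 and 0 without the second library of MB1 with Oli-neu, and 7 and 1 without the first. Both libraries with Oli-neu lay below both libraries alone for 16 of 21 sterol genes (76.2%) and 8 of 16 fatty acid genes (50%), beside 41.5% of all genes tested. The median log2 fold change was -0.45 for the sterol branch and -0.22 for the fatty acid branch, beside -0.17 for all genes. Median-ratio scaling puts the median of all genes at 0.00, a shift of the same size as that -0.17, and there the sterol branch had a median of -0.26 with 16 genes lower, and the fatty acid branch -0.04 with 11 lower. Summed over the branch, sterol transcripts were 1614 and 1311 TPM in MB1 with Oli-neu, against 1937 and 2149 TPM in MB1 alone. Those of the fatty acid branch were 1086 and 930.1 TPM with Oli-neu, against 1128 and 1210 TPM alone.

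**Figure D2:**
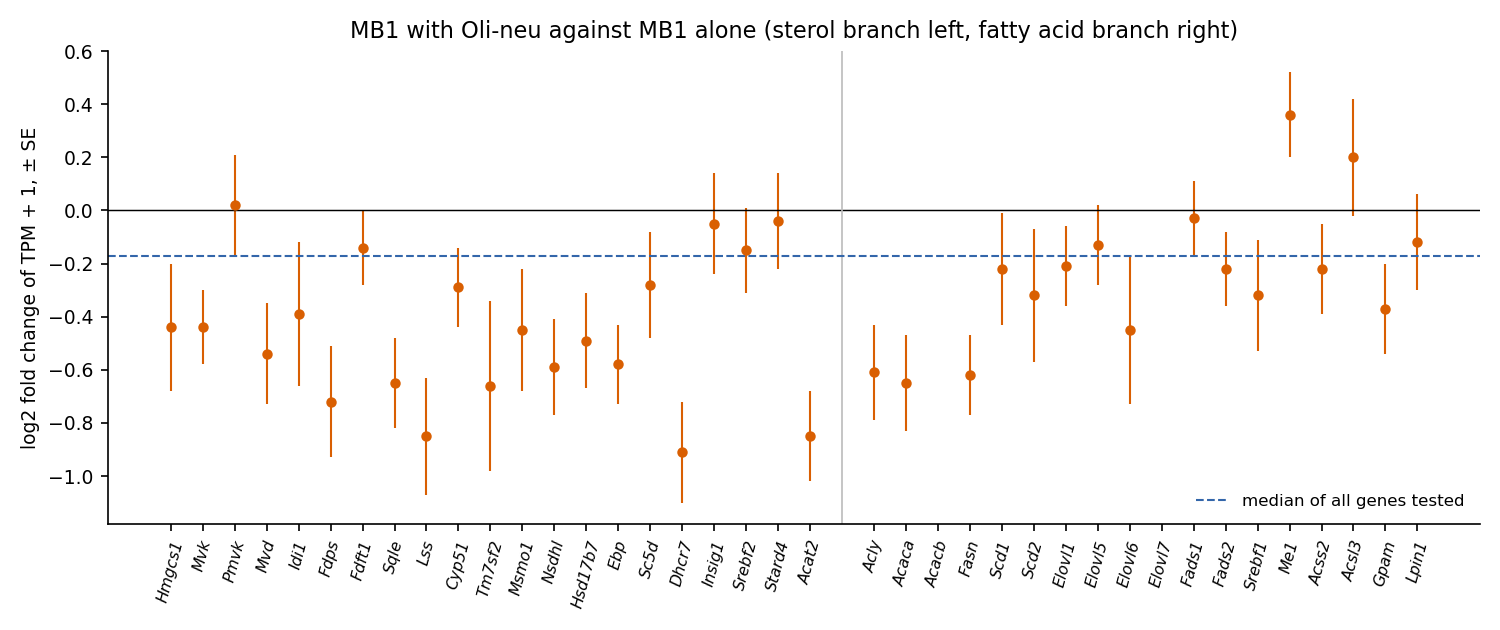
Log2 fold change of TPM + 1 in MB1 with Oli-neu against MB1 alone for each sterol gene (left) and fatty acid gene (right), with bars of 1 moderated SE and the median of all genes tested as a dashed line. Dhcr7 is lowest at -0.91 and Me1 highest at 0.36; Acacb and Elovl7, under the filter, have no point.

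The sterol genes with the smallest p in MB1 came from several steps of the pathway. Dhcr7, which makes cholesterol from 7-dehydrocholesterol in a last step (GRCm38 chromosome 7 from 143823145 to 143848410, plus strand), was at 181 and 154 TPM in MB1 with Oli-neu, against 285 and 348 TPM in MB1 alone. Both libraries with Oli-neu lay well below both libraries alone, with a log2 fold change of -0.91 (SE 0.19, adjusted p = 0.282). Acat2, the thiolase that joins acetyl-CoA units at the very start (chromosome 17 from 12942890 to 12960747, minus strand), was at 37.2 and 34.9 TPM in MB1 with Oli-neu, against 72.9 and 58.8 TPM in MB1 alone. The groups did not overlap, with a log2 fold change of -0.85 (SE 0.17, adjusted p = 0.282). Ebp, the isomerase that moves the double bond of the sterol ring (chromosome X from 8185329 to 8193512, minus strand), was at 18.0 and 16.1 TPM in MB1 with Oli-neu, against 25.4 and 26.6 TPM in MB1 alone. Here too the libraries of each group lay close together and apart from the other group, with a log2 fold change of -0.58 (SE 0.15, adjusted p = 0.282). Acat2 shares 97.7% of 1477 bases with the related gene Acat3, which was between 1.33 and 2.02 TPM in MB1. Acat2 also shares 98.7% of 445 bases with the more abundant Tcp1, a chaperonin subunit, on a strand that was not recorded. Tcp1 was at 217 and 195 TPM in MB1 with Oli-neu, against 241 and 358 TPM in MB1 alone, so it was lower without overlap as well, and how reads were split between it and Acat2 was not tested.

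The middle of the pathway gave values of the same direction. Sqle was at 53.0 and 43.6 TPM in MB1 with Oli-neu, against 79.3 and 72.4 TPM in MB1 alone. The co-culture libraries were both the low ones, with a log2 fold change of -0.65 (SE 0.17, adjusted p = 0.282). Lss, the synthase that closes squalene epoxide into lanosterol (chromosome 10 from 76531588 to 76557138, plus strand), was at 24.6 and 33.9 TPM in MB1 with Oli-neu, against 58.9 and 47.3 TPM in MB1 alone. The groups were apart, although the 2 libraries within each differed by more than those of Ebp, with a log2 fold change of -0.85 (SE 0.22, adjusted p = 0.282). Fdps, which makes farnesyl diphosphate, was at 139.5 and 107 TPM in MB1 with Oli-neu, against 181 and 226 TPM in MB1 alone. Again both low libraries were those with Oli-neu, with a log2 fold change of -0.72 (SE 0.21, adjusted p = 0.285). The other 4 sterol genes with an unadjusted p under 0.05 were Mvk and Mvd, a kinase and a decarboxylase of mevalonate, and Nsdhl and Hsd17b7, which remove methyl groups from the ring, with log2 fold changes between -0.59 and -0.44. Hmgcs1, Idi1, the isomerase of isopentenyl diphosphate, Fdft1, the squalene synthase, Cyp51, the lanosterol demethylase, Tm7sf2, a sterol reductase, and Msmo1, a methylsterol oxidase, did not overlap between the groups either, with log2 fold changes between -0.66 and -0.14 and p above 0.05. Fdft1 shares 774 bases with Ctsb, a gene across it on the other strand. Ctsb was at 238 and 274 TPM with Oli-neu, against 170 and 220 TPM alone, and its part in the value of Fdft1 was not tested.

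A further 5 sterol genes overlapped between MB1 with Oli-neu and MB1 alone. Insig1, Srebf2 and Stard4 were among them, with log2 fold changes of -0.05 (SE 0.19), -0.15 (SE 0.16) and -0.04 (SE 0.18). Pmvk, the kinase after Mvk, was at 35.5 and 28.6 TPM with Oli-neu and 28.4 and 34.6 TPM alone, and was the one sterol gene with a mean that was not lower, at 0.02 (SE 0.19). Sc5d, the desaturase before Dhcr7, shared a value near 25.7 TPM between 1 library of each group. Idi1 has a pseudogene, Gm13502, identical over 684 bases, which was at 21.5 and 25.5 TPM with Oli-neu, against 43.4 and 22.2 TPM alone. The sum of Idi1 and its pseudogene was 91.0 and 67.2 TPM with Oli-neu, against 114.2 and 93.2 TPM alone, so the 2 groups stayed apart.

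In the fatty acid branch the genes that make the saturated chain stood first. Fasn (chromosome 11 from 120805846 to 120824547, minus strand) was at 78.7 and 74.3 TPM in MB1 with Oli-neu, against 113 and 122 TPM in MB1 alone. The groups were apart and tight, with a log2 fold change of -0.62 (SE 0.15, adjusted p = 0.282). Acaca (chromosome 11 from 84129672 to 84401651, plus strand), which makes malonyl-CoA, was at 4.74 and 5.16 TPM in MB1 with Oli-neu, against 9.46 and 7.32 TPM in MB1 alone. The low libraries were both from co-culture, with a log2 fold change of -0.65 (SE 0.18, adjusted p = 0.285). Acly, which splits citrate into the acetyl-CoA that both branches use, was at 44.5 and 38.8 TPM in MB1 with Oli-neu, against 57.7 and 70.5 TPM in MB1 alone. Both libraries with Oli-neu were below both alone, with a log2 fold change of -0.61 (SE 0.18, adjusted p = 0.285). Gpam had a log2 fold change of -0.37 (SE 0.17, adjusted p = 0.354), from 4.31 and 4.68 TPM with Oli-neu, against 6.67 and 5.59 TPM alone. The smallest step of the genes read in full was that of Fads2, at 102 and 101 TPM with Oli-neu, against 119 and 118 TPM alone, with a log2 fold change of -0.22 (SE 0.14, adjusted p = 0.449). Both were non-overlapping, with the co-culture libraries low.

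Me1, the malic enzyme that supplies NADPH for fatty acid synthesis (chromosome 9 from 86581371 to 86695953, minus strand), was at 69.8 and 64.1 TPM in MB1 with Oli-neu, against 48.4 and 55.6 TPM in MB1 alone. It was the one member whose co-culture libraries both lay above the monoculture libraries, beside 10.9% of all genes tested, with a log2 fold change of 0.36 (SE 0.16, adjusted p = 0.347). Me1 shares 99% of 210 bases with the pseudogene Gm7329, which was at 829.5 and 701 TPM in MB1 with Oli-neu, against 490.9 and 600.5 TPM in MB1 alone. This far more abundant transcript was thus higher without overlap in the same libraries, and its part in the value of Me1 was not tested. A longer near copy, the pseudogene Gm7049 with 98.5% identity, was at a mean of 0.00587 TPM in MB1. Acsl3 was the other member with a higher mean, at 0.20 (SE 0.22), and its groups overlapped. Elovl1, Elovl5 and Srebf1 were lower without overlap, at log2 fold changes between -0.32 and -0.13. Scd1, Scd2, Elovl6, Fads1, Acss2 and Lpin1 overlapped between the groups. Scd1 and Scd2 share 95.5% of 623 bases, so part of their reads could be split between them.

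Lineage markers of MB1 differed between the same libraries. Of the 8 markers of the oligodendrocyte lineage tested, 6 were lower with Oli-neu and none of these overlapped, beside 41.5% of all genes tested that were lower without overlap, and the list of 10 summed to 815.6 and 680.6 TPM with Oli-neu, against 1004 and 1175 TPM alone. Olig1 and Olig2 made up most of it, at 575 and 455 and 155 and 151 TPM with Oli-neu, against 655 and 833 and 246 and 228 TPM alone, while Sox10 stayed under 1 TPM in both. Of 7 astrocyte markers tested 6 were higher with Oli-neu, 4 of them without overlap beside 10.9% of all genes tested, and their list of 8 summed to 785.5 and 804.2 TPM with Oli-neu, against 757.5 and 649.9 TPM alone. The granule precursor list summed to 170.5 and 196.5 TPM with Oli-neu, against 152.1 and 134.9 TPM alone. Zic1 made up most of it, at 101 and 125 TPM with Oli-neu, against 84.3 and 63.7 TPM alone. Of the 6 genes of this list tested, 4 had a higher mean and 2 a lower one. Without overlap 3 were higher and 1 lower, beside 10.9% and 41.5% of all genes tested. Endothelial and fibroblast markers summed to 3.17 and 4.46 TPM with Oli-neu, against 1.218 and 1.686 TPM alone, and Pecam1, the one tested, was higher without overlap at 2.65 and 3.94 TPM, against 0.946 and 1.47 TPM. Those of microglia summed to 0.0416 and 0.0249 TPM with Oli-neu, against 0.379 and 0.357 TPM alone. The part of these markers in the values of the sterol genes was not tested.

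In Oli-neu with MB1 against Oli-neu alone, the reverse side of the same co-culture, 20 of 21 sterol genes had a lower mean beside the tumour line, while the fatty acid genes went both ways, 11 lower and 6 higher of 17 tested. Of all genes tested 62.6% had a lower mean and 37.4% a higher one. No member was called, and none of the 12280 genes tested was (571 lower and 176 higher at an unadjusted p under 0.05). The smallest adjusted p was 0.791 in the sterol branch and 0.836 in the fatty acid branch. Both libraries with MB1 lay below both alone for 8 of 21 sterol genes (38.1%) and 3 of 17 fatty acid genes (17.6%), beside 24.0% of all genes tested. The median log2 fold change was -0.26 for sterol genes and -0.04 for fatty acid genes, beside -0.06 for all genes, and under median-ratio scaling the sterol median was -0.19 and the fatty acid median changed sign to 0.03. Sterol transcripts summed to 1169 and 952.4 TPM with MB1, against 1199 and 1327 TPM alone. Astrocyte markers summed to 1185 and 1079 TPM with MB1, against 1005 and 966.6 TPM alone, and 4 of the 5 tested had a higher mean, 1 of them without overlap, beside 10.1% of all genes tested. Those of the oligodendrocyte lineage summed to 625.2 and 727 TPM with MB1, against 638.3 and 708.5 TPM alone, and those of fibroblasts and endothelium to 6.32 and 6.53 TPM, against 6.78 and 8.56 TPM. The part of these markers in the values of the sterol genes was not tested.

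Pmvk was at 18.9 and 19.2 TPM in Oli-neu with MB1, against 25.5 and 22.4 TPM in Oli-neu alone. It was the one member with an unadjusted p under 0.05, beside 4.65% of all genes tested that were lower and 1.43% that were higher, and both libraries with MB1 were the low ones, with a log2 fold change of -0.31 (SE 0.11, adjusted p = 0.791). The number of sterol genes with such a p was 2 with the replicate block or with no filter, 3 without the first library with MB1, and 0 without the first library alone, in the fit of 4 libraries or under median-ratio scaling. Ebp was at 11.5 and 13.1 TPM in Oli-neu with MB1, against 14.8 and 15.7 TPM in Oli-neu alone. The groups did not overlap, with a log2 fold change of -0.29 (SE 0.12, adjusted p = 0.809). Msmo1 was at 113 and 91.5 TPM in Oli-neu with MB1, against 133 and 145 TPM in Oli-neu alone. The co-culture libraries were again the low ones, with a log2 fold change of -0.45 (SE 0.25, adjusted p = 0.870).

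Mvk, the kinase that phosphorylates mevalonate, was at 13.2 and 11.8 TPM in Oli-neu with MB1, against 20.2 and 14.4 TPM in Oli-neu alone. The libraries alone differed by more than those with MB1, but stayed above them, with a log2 fold change of -0.42 (SE 0.27, adjusted p = 0.885). Mvd was at 17.9 and 17.5 TPM with MB1 and 18.9 and 23.3 TPM alone (log2 fold change -0.23, SE 0.15). Fdft1 was at 45.8 and 35.9 TPM with MB1, against 46.7 and 52.9 TPM alone (log2 fold change -0.29, SE 0.20). Both were lower without overlap, and Fdft1 shares 774 bases with Ctsb, which lies across it on the other strand. Ctsb was at 100.8 and 79.7 TPM with MB1, against 76.3 and 74.4 TPM alone, so it was higher without overlap. Its part in the value of Fdft1 was not tested. Hmgcs1 and Fdps completed the 8 sterol genes without overlap, at log2 fold changes of -0.30 (SE 0.21) and -0.18 (SE 0.19).

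Of the fatty acid genes, Acly, Fasn and Acss2 were lower without overlap and Lpin1 was higher. Acly was at 55.1 and 50.4 TPM in Oli-neu with MB1, against 62.6 and 70.0 TPM in Oli-neu alone. The co-culture libraries lay below, with a log2 fold change of -0.32 (SE 0.17, adjusted p = 0.850). Fasn was at 79.8 and 74.6 TPM in Oli-neu with MB1, against 87.5 and 98.2 TPM in Oli-neu alone. Both libraries with MB1 lay below both alone, with a log2 fold change of -0.26 (SE 0.13, adjusted p = 0.836). Lpin1 was at 8.86 and 7.73 TPM in Oli-neu with MB1, against 7.35 and 6.77 TPM in Oli-neu alone. Both libraries with MB1 lay above both alone, beside 10.1% of all genes tested, with a log2 fold change of 0.20 (SE 0.12, adjusted p = 0.867). Acss2, which makes acetyl-CoA from acetate, was at 16.7 and 16.4 TPM with MB1, against 17.4 and 22.2 TPM alone (log2 fold change -0.23, SE 0.15, adjusted p = 0.895), and its libraries with MB1 were both the low ones.

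The sterol values of Oli-neu with MB1 differed between the 2 library numbers. Between libraries numbered 1, the sterol median was -0.03 with 11 of 21 genes lower, and between libraries numbered 2 it was -0.52 with 20 lower. For fatty acid genes the medians were 0.16 for number 1 and -0.22 for number 2. The numbers also went with the level inside each condition. Number 1 was above number 2 for 17 of 21 sterol genes in Oli-neu with MB1, for 4 of 21 in Oli-neu with D341 and for 4 of 21 in Oli-neu alone. In MB1 the sterol medians were -0.35 for number 1 and -0.52 for number 2, with 17 of 21 genes lower in the first, and number 1 was above number 2 for 18 of 21 in MB1 with Oli-neu and for 7 of 21 in MB1 alone. Without the second library of Oli-neu with MB1 the sterol median against Oli-neu alone was -0.11, and without the first it was -0.40.

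**Figure D3:**
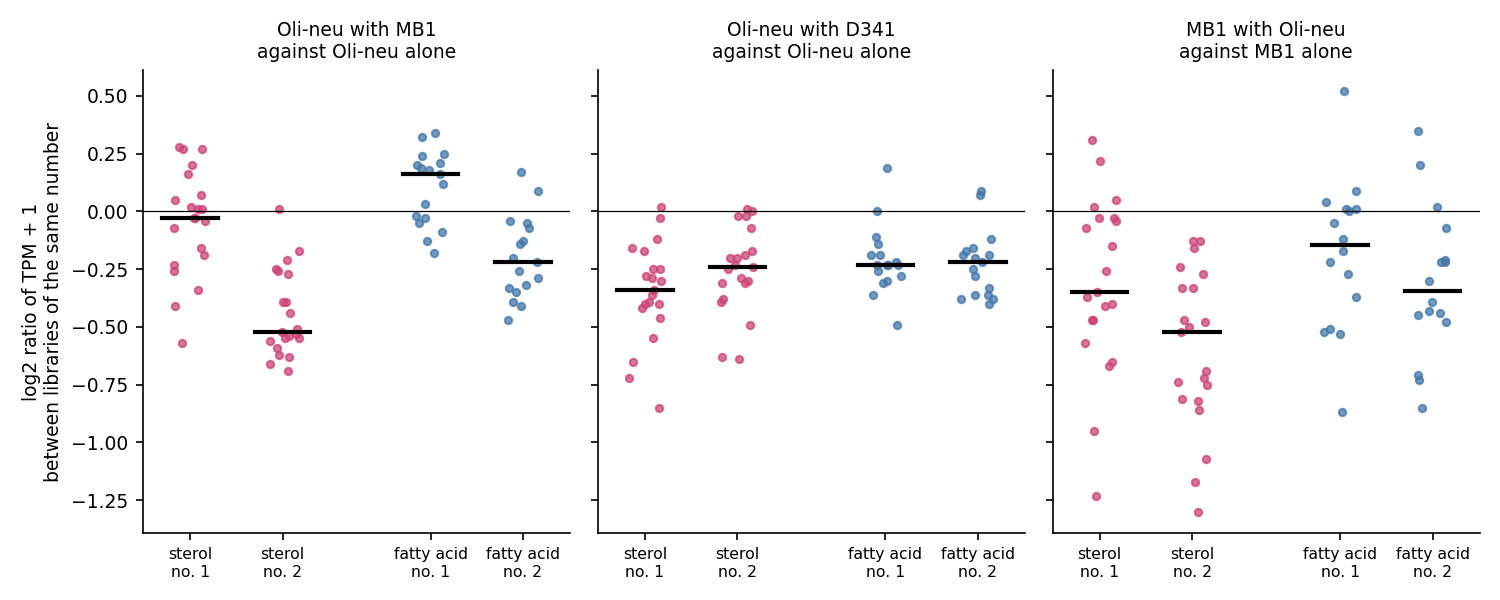
Log2 ratio of TPM + 1 between libraries of the same number for each sterol gene (red) and fatty acid gene (blue), in 3 comparisons, with the median as a bar. In Oli-neu with MB1 the sterol median is -0.03 for number 1 and -0.52 for number 2, while in Oli-neu with D341 it is -0.34 and -0.24.

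In Oli-neu with D341 against Oli-neu alone, all 21 sterol genes and 15 of 17 fatty acid genes had a lower mean beside the human tumour line, as did 75.8% of all genes tested, while 24.1% had a higher mean. Its controls are the same 2 libraries of Oli-neu alone as in the comparison with MB1, so the 2 are not independent. No member was called, nor was any of the 12280 genes tested (1486 lower and 198 higher at an unadjusted p under 0.05), and the smallest adjusted p was 0.320 among sterol genes and 0.382 among fatty acid genes. Both libraries with D341 lay below both alone for 10 of 21 sterol genes (47.6%) and 13 of 17 fatty acid genes (76.5%), beside 44.0% of all genes tested, and for no member lay above, beside 7.12%. The median log2 fold change was -0.27 for sterol and -0.24 for fatty acid genes, beside -0.16 for all genes. Under median-ratio scaling, which again sets the median of all genes to 0.00, these medians were -0.08, with 16 sterol genes lower and 5 higher, and -0.06, with 13 fatty acid genes lower and 4 higher. Between libraries of the same number, which the labels do not state to be pairs, the sterol medians were -0.34 for number 1 and -0.24 for number 2. Those of fatty acid genes were -0.23 and -0.22. With a library left out, the sterol median ranged from -0.42 to -0.17, with 16 to 21 genes lower. The fatty acid median then ranged from -0.26 to -0.2. In sum, sterol transcripts were 917.1 and 1164 TPM with D341, against 1199 and 1327 TPM alone.

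Ebp and Pmvk were the 2 members with an unadjusted p under 0.05, beside 12.1% of all genes tested that were lower and 1.61% that were higher. With the replicate block 4 sterol genes and 1 fatty acid gene had such a p, in the fit of 4 libraries 5 and 1, and under median-ratio scaling 1 and 0. Ebp was at 11.0 and 9.85 TPM in Oli-neu with D341, against 14.8 and 15.7 TPM in Oli-neu alone. Both libraries with D341 lay below, with a log2 fold change of -0.52 (SE 0.12, adjusted p = 0.320). Pmvk was at 18.3 and 18.0 TPM in Oli-neu with D341, against 25.5 and 22.4 TPM in Oli-neu alone. The groups were apart, with a log2 fold change of -0.38 (SE 0.11, adjusted p = 0.320). Dhcr7 was at 68.9 and 87.3 TPM in Oli-neu with D341, against 114 and 114 TPM in Oli-neu alone. The libraries alone nearly coincided and both lay above, with a log2 fold change of -0.55 (SE 0.22, adjusted p = 0.369).

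Msmo1 was at 73.4 and 117 TPM in Oli-neu with D341, against 133 and 145 TPM in Oli-neu alone. The 2 libraries with D341 were far from each other, and both below, with a log2 fold change of -0.58 (SE 0.25, adjusted p = 0.388). Lss was at 20.7 and 24.7 TPM with D341, against 27.9 and 39.0 TPM alone (log2 fold change -0.53, SE 0.23), and Acat2 at 49.1 and 48.3 TPM, against 77.4 and 63.0 TPM (log2 fold change -0.51, SE 0.24). Neither overlapped, with the co-culture libraries low, and Tcp1, which shares sequence with Acat2, was at 169.1 and 180.1 TPM with D341, against 216 and 227 TPM alone. The other sterol genes without overlap were Sqle, Cyp51, Nsdhl and Hsd17b7, with log2 fold changes between -0.39 and -0.24. Insig1, Srebf2 and Stard4 overlapped, at -0.07 (SE 0.26), 0.00 (SE 0.17) and -0.12 (SE 0.27).

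Acly was at 44.3 and 57.4 TPM in Oli-neu with D341, against 62.6 and 70.0 TPM in Oli-neu alone. The libraries with D341 were the low ones, with a log2 fold change of -0.39 (SE 0.17, adjusted p = 0.382). Elovl6, the elongase that takes palmitate to stearate, was at 4.31 and 3.37 TPM in Oli-neu with D341, against 5.24 and 4.78 TPM in Oli-neu alone. The groups were apart, with a log2 fold change of -0.32 (SE 0.15, adjusted p = 0.400). Scd1 was at 19.4 and 20.9 TPM in Oli-neu with D341, against 24.3 and 27.6 TPM in Oli-neu alone. Again both libraries with D341 lay below, with a log2 fold change of -0.35 (SE 0.17, adjusted p = 0.407). Acss2, Acsl3 and Fasn were lower without overlap at log2 fold changes of -0.30 (SE 0.15), -0.27 (SE 0.15) and -0.21 (SE 0.13). Elovl1 and Elovl5 were the 2 fatty acid genes with a higher mean, at 0.13 (SE 0.20) and 0.04 (SE 0.13), and Scd2 and Srebf1 overlapped with lower means. Markers of the oligodendrocyte lineage were also lower in these libraries, 7 of the 9 tested and all 7 without overlap, beside 44.0% of all genes tested, and summed to 558.9 and 585.7 TPM with D341, against 638.3 and 708.5 TPM alone. Astrocyte markers summed to 940.2 and 927.3 TPM with D341, against 1005 and 966.6 TPM alone, and Col1a1 was at 2.52 and 2.08 TPM with D341, against 5.12 and 4.09 TPM alone. The part of these markers in the values of the synthesis genes was not tested.

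**Figure D4:**
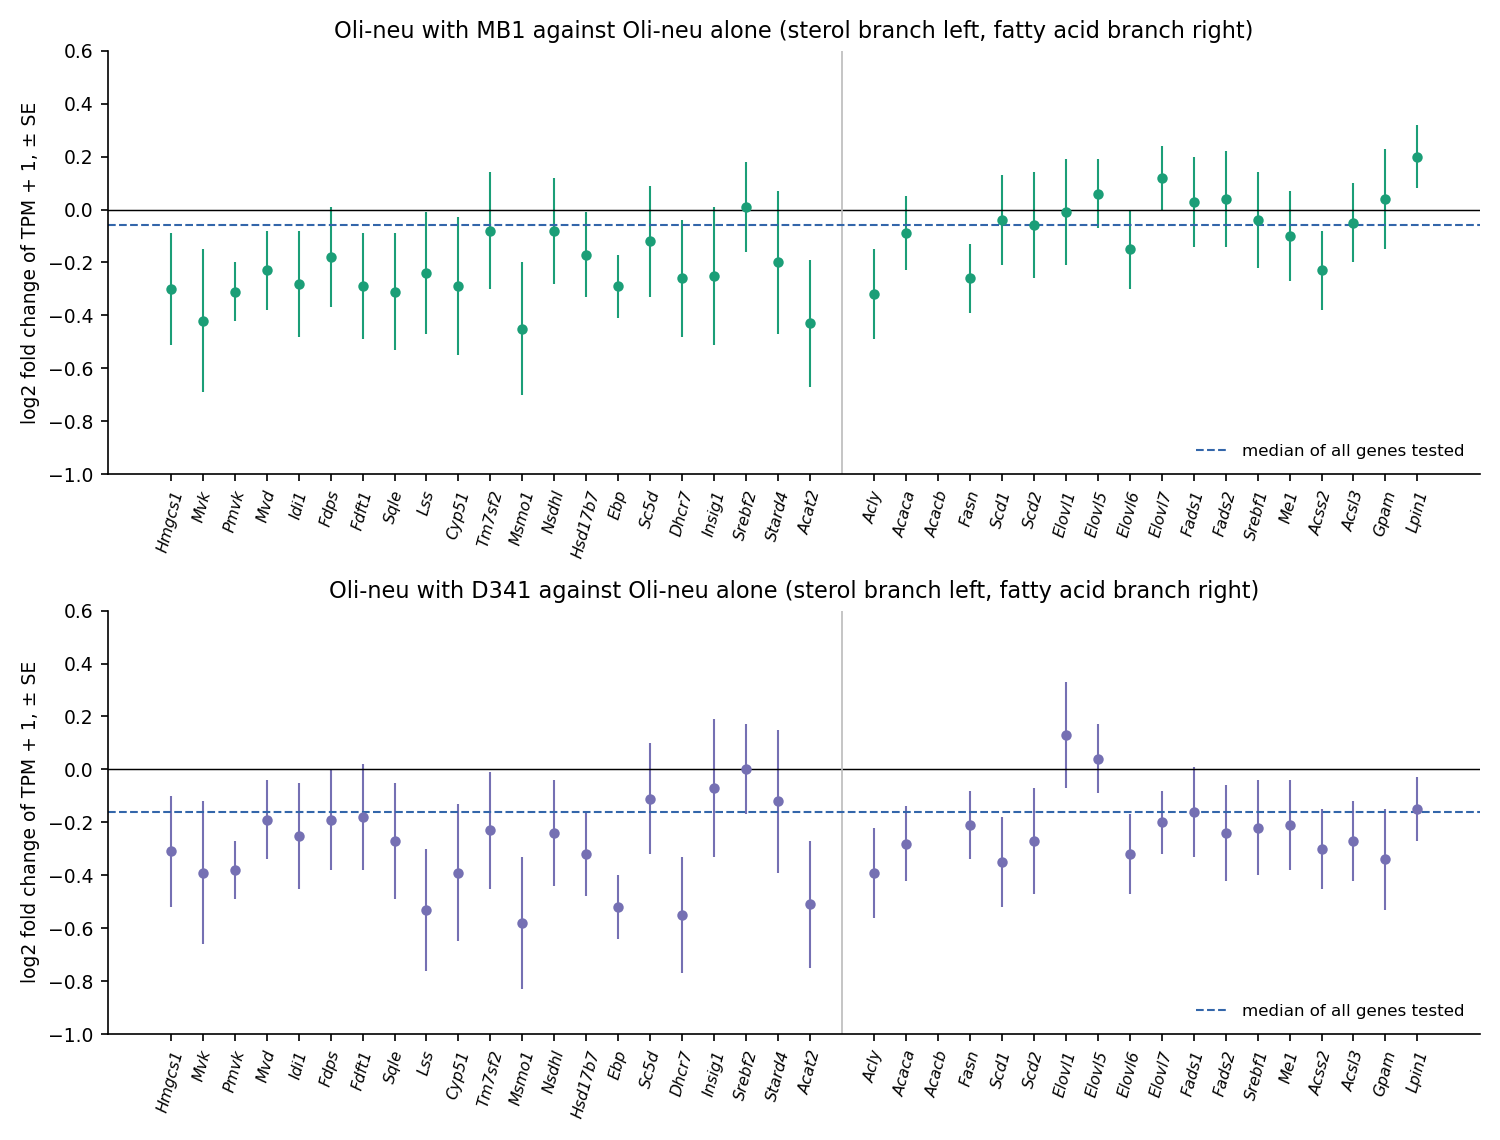
Log2 fold change of TPM + 1 for each sterol gene (left) and fatty acid gene (right) in Oli-neu with MB1 (top) and Oli-neu with D341 (bottom), each against Oli-neu alone, with bars of 1 moderated SE and a dashed line at the median of all genes tested. Most sterol genes lie below 0 in both panels, and the fatty acid genes lie around 0 with MB1 (median -0.04) and mostly below it with D341 (median -0.24).

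The 2 partners were also compared directly, with the libraries of Oli-neu with D341 set against those with MB1. The sterol branch had no common direction, with 13 genes lower and 8 higher beside D341 and a median of -0.02 that turned to 0.10 under median-ratio scaling, while 68.5% of all genes tested were lower and 31.5% higher. The fatty acid branch was lower beside D341 for 15 of 17 genes, with a median of -0.19, beside -0.09 for all genes, and of -0.08 with 11 genes lower under median-ratio scaling. No gene was called (533 lower and 97 higher at an unadjusted p under 0.05), and the smallest adjusted p among members was 0.839. Both libraries with D341 lay below both with MB1 for 2 sterol genes, Ebp and Pmvk, and for 6 fatty acid genes (35.3%), beside 28.8% of all genes tested. Between libraries numbered 1 the sterol median was -0.32, and between those numbered 2 it was 0.22; for fatty acid genes the values were -0.31 and -0.04.

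Lpin1 was at 6.60 and 5.96 TPM in Oli-neu with D341, against 8.86 and 7.73 TPM in Oli-neu with MB1. The groups were apart, with the libraries with D341 low, with a log2 fold change of -0.35 (SE 0.12, adjusted p = 0.839). Elovl7 was at 6.76 and 6.34 TPM in Oli-neu with D341, against 9.14 and 7.78 TPM in Oli-neu with MB1. It did not overlap either, and these 2 genes had an unadjusted p under 0.05, beside 4.34% of all genes tested that were lower and 0.790% that were higher, with a log2 fold change of -0.32 (SE 0.12, adjusted p = 0.839). The count moved between settings: 0 fatty acid genes had an unadjusted p under 0.05 under median-ratio scaling, in the fit of 4 libraries, without either library with D341 or without the first with MB1, and 5 had one without the second with MB1. Scd1 was at 19.4 and 20.9 TPM in Oli-neu with D341, against 29.0 and 21.8 TPM in Oli-neu with MB1. The libraries with D341 lay below, with a log2 fold change of -0.31 (SE 0.17, adjusted p = 0.839). Oligodendrocyte lineage markers were lower for 9 of the 9 tested, beside 68.5% of all genes tested. They summed to 558.9 and 585.7 TPM with D341, against 625.2 and 727 TPM with MB1. Astrocyte markers summed to 940.2 and 927.3 TPM, against 1185 and 1079 TPM. The part of both marker lists in these values was not tested.

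Fads2 and Acsl3 were lower without overlap by the same reading, at log2 fold changes of -0.28 (SE 0.18) and -0.22 (SE 0.15), and so was Gpam, whose mean was 1.11 TPM with D341 and 1.77 TPM with MB1. Ebp was at 11.0 and 9.85 TPM with D341, against 11.5 and 13.1 TPM with MB1, and had a log2 fold change of -0.22 (SE 0.12, adjusted p = 0.839). Pmvk differed by -0.07 (SE 0.11), and its direction turned to 0.04 under median-ratio scaling. For Insig1, Srebf2 and Stard4 the differences between the partners were 0.18 (SE 0.26), -0.01 (SE 0.17) and 0.07 (SE 0.27), all with overlapping libraries.

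Neighbouring pathways were read from lists of related genes. In MB1 with Oli-neu against MB1 alone, 14 of 17 genes of fatty acid oxidation had a higher mean, 7 of them without overlap and none lower without overlap, beside 29.1% of all genes tested with a higher mean and, without overlap, 10.9% higher and 41.5% lower. The median of the list was 0.12, and 0.31 with 17 of 17 higher under median-ratio scaling. Acadvl, the dehydrogenase that opens the oxidation of very long chains, had a mean of 85.5 ± 4.40 TPM with Oli-neu and 56.9 ± 0.0754 TPM alone (SD, n = 2 each) and a log2 fold change of 0.58 (SE 0.14, adjusted p = 0.282). Decr1, a reductase for unsaturated chains, was higher without overlap at 0.29 (SE 0.15). The 6 tested genes of the LXR factors and sterol efflux also had higher means, with a median of 0.12, and all overlapped. Between libraries numbered 1 the median of this list was -0.12 with 4 of 6 genes lower, and between those numbered 2 it was 0.43 with 0 lower. Abcg4 was at 5.43 and 4.08 TPM with Oli-neu, against 4.63 and 2.51 TPM alone, and Abca2, another transporter of the same large family, had a log2 fold change of 0.21 (SE 0.21).

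The isoprenoid side branch of the mevalonate pathway had 10 of 11 genes lower in MB1 with Oli-neu, 6 of them without overlap, beside 70.9% of all genes tested with a lower mean and 41.5% lower without overlap. The median was -0.23, and -0.06 under median-ratio scaling. Pdss1, which builds the tail of coenzyme Q, had a log2 fold change of -0.55 (SE 0.16, adjusted p = 0.285) and Ggps1, the geranylgeranyl diphosphate synthase, one of -0.38 (SE 0.17, adjusted p = 0.358). Among 12 genes that control SREBP, 8 were lower, with a median of -0.13 that turned to 0.04 under median-ratio scaling. Nfyc, a subunit of the CCAAT-binding factor NF-Y, was at 13.0 and 16.0 TPM in MB1 with Oli-neu, against 28.7 and 26.0 TPM in MB1 alone. The groups were far apart, with a log2 fold change of -0.88 (SE 0.17, adjusted p = 0.282). Mbtps1, the protease that makes the first cut in SREBP, had a mean of 32.9 ± 0.653 TPM with Oli-neu and 51.3 ± 5.91 TPM alone (log2 fold change -0.62, SE 0.16, adjusted p = 0.282).

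Genes of sterol uptake and transport went both ways in MB1, 8 lower and 6 higher, beside 70.9% of all genes tested with a lower mean. Their median was -0.05 and turned to 0.11 under median-ratio scaling. The lipoprotein receptor Lrp8 was lower at -0.68 (SE 0.18, adjusted p = 0.282), and Lrp1, a large receptor for many ligands, was higher at 0.40 (SE 0.16, adjusted p = 0.328), both without overlap. Of all genes tested, 41.5% were lower and 10.9% higher without overlap. In the list of other lipid synthesis genes, 16 of 26 were lower, beside the same 70.9% of all genes tested. Their median was -0.12, beside -0.17 for all genes, and turned to 0.02 under that scaling. Acsl6, an acyl-CoA synthetase of brain, was higher at 0.82 (SE 0.26, adjusted p = 0.292), and Elovl2, an elongase of polyunsaturated chains, lower at -0.70 (SE 0.18, adjusted p = 0.282).

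In Oli-neu with MB1 the neighbouring lists lay close to 0, with medians between -0.09 for sterol uptake and transport and 0.13 for LXR and efflux. Sp1, the GC-box factor, was at 24.7 and 15.1 TPM in Oli-neu with MB1, against 8.61 and 9.71 TPM in Oli-neu alone. Both libraries with MB1 lay above, although they differed from each other as well, with a log2 fold change of 1.00 (SE 0.24, adjusted p = 0.715). Gramd1b, a carrier of cholesterol from the plasma membrane to the endoplasmic reticulum, was higher at 0.36 (SE 0.11, adjusted p = 0.769), and Dhdds and Cpt2 were lower at -0.48 (SE 0.20) and -0.38 (SE 0.15). In Oli-neu with D341 the medians of these lists lay between -0.22 and -0.07, against -0.16 for all genes. Soat1, which esterifies cholesterol for storage, was at 21.2 and 25.5 TPM in Oli-neu with D341, against 38.4 and 38.4 TPM in Oli-neu alone. Both libraries with D341 lay below both alone, with a log2 fold change of -0.70 (SE 0.17, adjusted p = 0.320). Scarb1, a receptor for high-density lipoprotein, was lower at -0.42 (SE 0.11, adjusted p = 0.320), and so were the medium-chain dehydrogenase Acadm at -0.65 (SE 0.13) and the short-chain dehydrogenase Acads at -0.52 (SE 0.12), all without overlap. In fatty acid oxidation 14 of 17 genes were lower with D341, 13 of them without overlap, beside 75.8% of all genes tested with a lower mean and 44.0% lower without overlap.

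**Figure D5:**
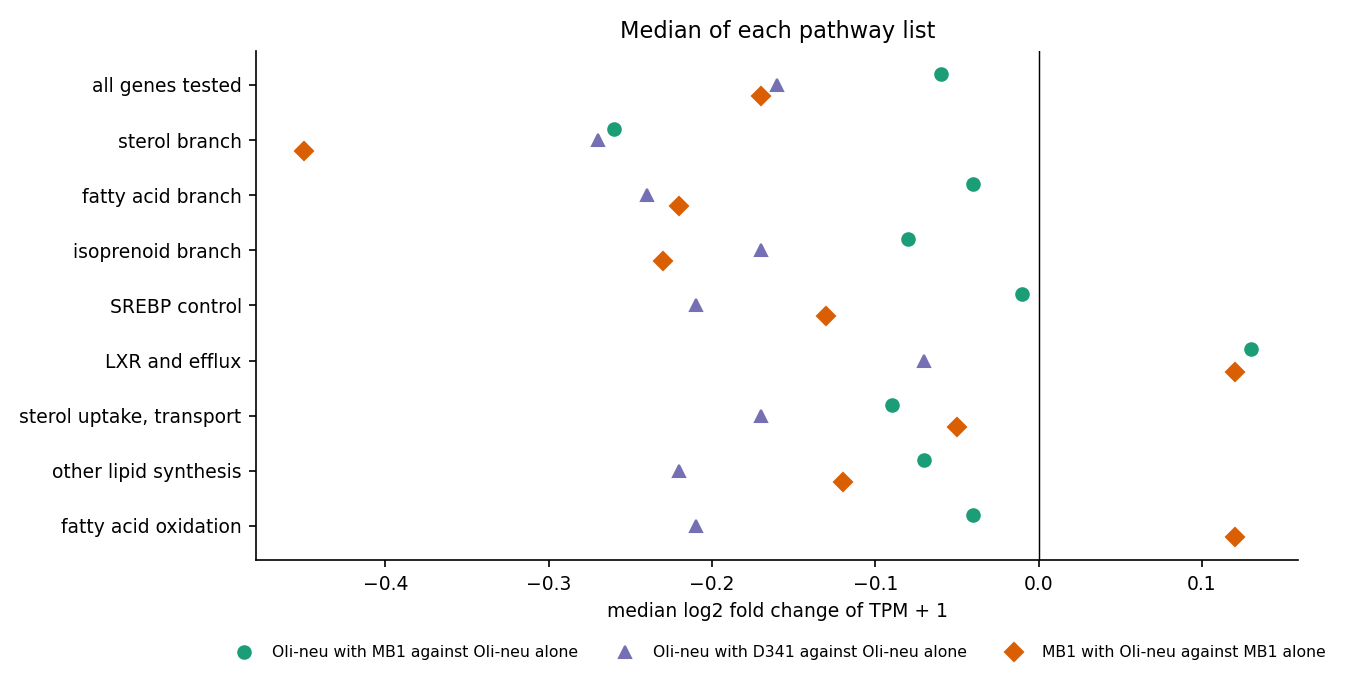
Median log2 fold change of TPM + 1 for the synthesis branches, the neighbouring pathway lists and all genes tested, in 3 comparisons, without the cell marker lists. Among those shown, in MB1 with Oli-neu (diamonds) the sterol branch is lowest at -0.45 and fatty acid oxidation and LXR and efflux are highest at 0.12.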

How the data were processed

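The values are the TPM the authors deposited, 1 table for each line with a column for each library, and every column sums to 1000000. The submitters' processing notes list Salmon 0.14.1, DESeq2 1.22.2, FastQC 0.11.8 and MultiQC 1.7 and both the GRCm38 and the GRCh38 build. Per the labels, RNA was poly(A)-selected and read from a directional kit. Depth is unknown without counts, and no count test was run. The D341 table was not used here. Symbols and positions came from GENCODE M21 on GRCm38 and promoters from RefSeq.

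Genes that reached 1 TPM in 2 or more libraries were fitted on the scale log2(TPM + 1) by limma-trend (limma 3.58.1, R 4.3.3). Tests were two-sided, with Benjamini-Hochberg adjustment over every gene tested and a threshold of 0.05. All 6 Oli-neu libraries shared 1 fit, and the 4 MB1 libraries another. Errors are the SD of 2 libraries for TPM and the moderated SE for fold changes, and the p-values measure only the spread between these cultures. The members, lists and tests were chosen with earlier results of these data known. Genes given in full had groups that did not overlap and reached a mean of 5 TPM in either group, up to 6 a branch by smallest p. To these were added 10 landmarks and up to 2 genes of each neighbouring list. The procedure was run on simulated data with independent noise and planted changes of 2-fold or more. These data held no deviation shared between libraries, so they do not show how the fits behave where libraries deviate together. Near copies were found with BLAST 2.17.0 on both strands, and the strand of a match was not recorded.

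Libraries of the same number deviated together in Oli-neu, with correlations of 0.59, 0.61 and 0.62 across 12280 genes. The labels do not say that the numbers pair libraries, so the main fits were unpaired. The number entered as a block only in an alternative. In MB1 the correlation was -0.12. The alternatives tried were other pseudocounts (0.1 and 5 TPM), other filters (none, or 5 TPM), median-ratio scaling, protein-coding genes alone, limma with no trend or with robust=TRUE, the replicate number as a block, fits restricted to 4 libraries, and leaving out single libraries.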

Additional observations from a re-analysis of the deposited data

How the results depend on the processing

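No member was called under any alternative tried. The replicate block, with the number as a covariate, called 0 genes and 0 members in each comparison and so changed no call; in MB1 the crossed pairing, added after seeing the data, also called 0 genes. The counts over all genes did move. In Oli-neu with MB1 against Oli-neu alone they were 2 higher and 1 lower with a pseudocount of 0.1 TPM, 1 higher with no filter or without a trend, and 2 higher with median-ratio scaling or protein-coding genes alone. With D341 against alone they were 3 higher with no filter, 1 higher with protein-coding genes alone, and 0 to 2 lower with a library left out, 2 of them without the second library with D341. With D341 against with MB1 they were 4 higher and 2 lower with no filter, and 1 lower with protein-coding genes alone or without a trend. In MB1 with Oli-neu against MB1 alone they were 3 higher and 2 lower with protein-coding genes alone, 2 higher and 7 lower with robust=TRUE, and 0 to 34 higher and 0 to 34 lower with a library left out, where both counts of 34 came without the first library of MB1 alone and 1 higher came without its second.

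Median-ratio scaling gave medians of -0.08 (sterol) and -0.06 (fatty acid) in Oli-neu with D341 against alone, and of -0.26 and -0.04 in MB1. It left 6 fatty acid genes lower in Oli-neu with MB1 and 7 sterol genes lower with D341 against MB1, where Pmvk turned to 0.04. With a library left out, the median ranged from -0.66 to -0.37 for sterol and from -0.32 to -0.16 for fatty acid genes in MB1, the lowest of each without the first library of MB1 with Oli-neu, and from -0.29 to -0.06 for fatty acid genes with D341 against with MB1, the last without the first library of Oli-neu with MB1. Lower means then ranged from 7 sterol genes with D341 against with MB1, without the first library with MB1, to 20, without the second with D341. In Oli-neu with MB1 they ranged from 6 fatty acid genes, without its second library, to 14. The cause was not tested. Of the other values, 851 stayed the same, where counts were allowed a set margin, 57 moved and 1, the value of Pmvk given above, was reversed. Having 2 libraries a group and an unknown depth limit what these data can separate, above all for genes under 5 TPM such as Acaca in Oli-neu and Acacb in both lines.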
